A study of Mus musculus with 24 samples.

Results

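Vegfa and 9 genes that are commonly read together as the transcriptional response to low oxygen and as the glycolytic program (Hif1a, Slc2a1, Ldha, Pgk1, Hk2, Bnip3, Egln3, Pdk1 and Adm) were examined in splenic dendritic cells (DCs) of newborn mice. Members were every probe set whose only gene symbol was one of these 10, which gave 20 of 22626 probe sets, and 10 of 12393 genes with a probe set of 1 symbol. The cells were selected from spleens of BALB/c pups with magnetic beads against CD11c, a surface integrin of DCs, at day 14 of age. At-risk pups were born to mothers that had been sensitized to ovalbumin (OVA) and challenged with OVA aerosol, a model of maternal asthma, and normal pups were born to control mothers. Naïve pups had not been injected, while stimulated pups had received 1 intraperitoneal injection of 5 µg OVA with 1 mg of the adjuvant alum (day 3 after birth by the sample labels, day 4 by the study's methods). Differences between stimulated and naïve pups are called allergen differences below. No group used here received alum alone, so OVA, alum and the injection cannot be told apart. The first set of arrays, Set 1, had 3 from naïve pups of control mothers, 4 from naïve at-risk pups, 4 from stimulated pups of control mothers and 4 from stimulated at-risk pups. Set 2 had stimulated pups alone (4 normal and 5 at-risk arrays) and was amplified and preprocessed apart from Set 1, so that the sets were compared only through differences within a set. How many pups an array stands for is not stated in the sources used here. The p-values therefore measure the spread between arrays.

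The hypoxia-inducible factor (HIF) is a transcription factor of an oxygen-labile alpha subunit, such as the product of Hif1a, and a stable partner, Arnt. When oxygen is ample, prolyl hydroxylases (Egln1 to Egln3) mark the alpha subunit for the ubiquitin ligase that contains Vhl, and the subunit is degraded, so HIF is controlled largely at the protein and not at the mRNA level. In low oxygen, and in DCs also upon innate activation, HIF raises genes for glucose entry (Slc2a1, or GLUT1), glycolysis (Hk2, Pgk1, Ldha), the brake on pyruvate oxidation (Pdk1), mitophagy (Bnip3) and the vascular factors VEGF-A and adrenomedullin (Vegfa, Adm). Only mRNA was measured here, and in bulk samples fewer cells of a type and less RNA per cell cannot be told apart.

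HIF binds DNA at a core of ACGTG, of which the first letter can also be a G (GCGTG), and this core was searched for in the promoters of the members. RefSeq promoters (mouse build GRCm38.p6, 250 bases before to 50 bases after a start site) were given for all 10 genes, 13 in all. The core was found on either strand (a palindrome holds it on both) in 11 of the 13 member promoters, or 84.6%, and in at least 1 promoter of 10 of 10 genes. It was also present in 43.8% of all 32851 promoters of the same length, and in at least 1 promoter of 46.7% of all 27025 genes. A match is thus a description of the letters and not a bound site. The stretches of Vegfa, Slc2a1, Ldha and Bnip3 are shown because they cover the secreted factor, glucose entry, lactate formation and mitophagy, with the core in capitals. The Vegfa stretch lies at chr17:46025355-46025389 (minus strand) with the second core at -211, counted from the start site. This Vegfa start site lies inside the gene (chr17:46016993-46032377). The promoter at the start of the gene, chr17:46032328-46032627, held 0 cores. The Slc2a1 stretch lies at chr4:119108694-119108728 (plus strand, core at -36), the Ldha stretch at chr7:46845755-46845789 (plus strand, right-hand core at -34) and the Bnip3 stretch at chr7:138909522-138909556 (minus strand, core at -35).
Vegfa: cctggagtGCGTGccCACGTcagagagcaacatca
Slc2a1: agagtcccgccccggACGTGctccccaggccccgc
Ldha: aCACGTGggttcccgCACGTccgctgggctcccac
Bnip3: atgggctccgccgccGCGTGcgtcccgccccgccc

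All values are log2 of the deposited signal, on which array medians lay between 8.09 and 8.22 and lower quartiles between 5.00 and 5.09. DC markers were high on every array (11 of 12 markers measured, mean log2 signal 12.16 to 12.51). Other cell types differed between groups, and these values stand beside the allergen results: the mean over 12 of 15 platelet markers was 6.32 to 6.63 on naïve arrays and 9.19 to 10.16 on stimulated arrays of Set 1, and that over 9 of 12 T cell markers was 9.82 to 10.23 and 8.67 to 9.82. The mean over all 13 macrophage markers was 10.56 to 10.85 on naïve and 10.10 to 10.35 on stimulated arrays of Set 1. That over 9 of 10 natural killer (NK) cell markers was 10.23 to 10.51 and 9.14 to 10.06. Beside the naïve results stands the T cell mean of naïve arrays, 10.14 to 10.23 in normal and 9.82 to 9.86 in at-risk pups, without overlap. In Set 2 the platelet mean was 6.73 to 6.96 in normal and 8.00 to 9.22 in at-risk pups, and that over all 14 endothelial markers was 6.05 to 6.23 and 6.85 to 7.33. The part of these cell types in the values below was not tested.

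None of the 20 member probe sets passed the test in any of 8 comparisons. A probe set was called changed at a Benjamini-Hochberg adjusted p of at most 0.05 over all probe sets (limma) and a difference of at least 0.322 on the log2 scale. The comparison of naïve at-risk with naïve normal DCs called 0.34% of all probe sets and 0 of 20 members, of which 5 had an unadjusted p under 0.05 (25%, against 15.8% of all probe sets). The comparison of stimulated at-risk with stimulated normal DCs over both sets called 1.73% of all probe sets and 0 members, of which 2 had an unadjusted p under 0.05 (10% against 17%). Within Set 1 this comparison called 0.0707% of all probe sets and 0 members, with 2 members under 0.05 unadjusted (10% against 7.31%), and within Set 2 it called 4.62% and 0 members, with 5 under 0.05 unadjusted (25% against 21.9%). Stimulated against naïve DCs of normal pups, the comparison with the most calls, called 11.5% of all probe sets and 0 members, of which 10 had an unadjusted p under 0.05 (50% against 27.8%). In at-risk pups the same comparison called 7.88% and 0 members, with 3 under 0.05 unadjusted (15% against 20.5%). The tests of the differences themselves called 0.0486% of all probe sets for the maternal effect in stimulated minus that in naïve DCs and 1.79% for that in Set 2 minus that in Set 1, with 0 members in each and 1 and 2 members under 0.05 unadjusted (5% against 8.41%, and 10% against 16.3%).

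The intervals, each for a probe set alone and not adjusted for their number, gave a range for the difference in signal. For at-risk against normal pups the 95% confidence intervals of all 20 probe sets lay within a 2-fold change in either direction, in naïve DCs, in stimulated DCs and in each set of the latter. A change of more than 1.5-fold lay outside the interval for 18 of 20 probe sets in naïve DCs and, over both sets, 20 of 20 in stimulated DCs. Within Set 1 this held for 19 of 20 and within Set 2 for 15 of 20. For the allergen, 19 of 20 intervals lay within 2-fold in normal and 19 of 20 in at-risk pups, the exception being in both the dim Hif1a probe set 1431981_at. Within 1.5-fold lay 16 of 20 in normal and 18 of 20 in at-risk pups. The medians of the 20 differences were -0.07 in naïve and -0.03 in stimulated maternal comparisons, and -0.12 and -0.01 for the allergen in normal and at-risk pups, beside medians of 0.00, -0.01, 0.00 and -0.01 over all probe sets.

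**Figure D1:**
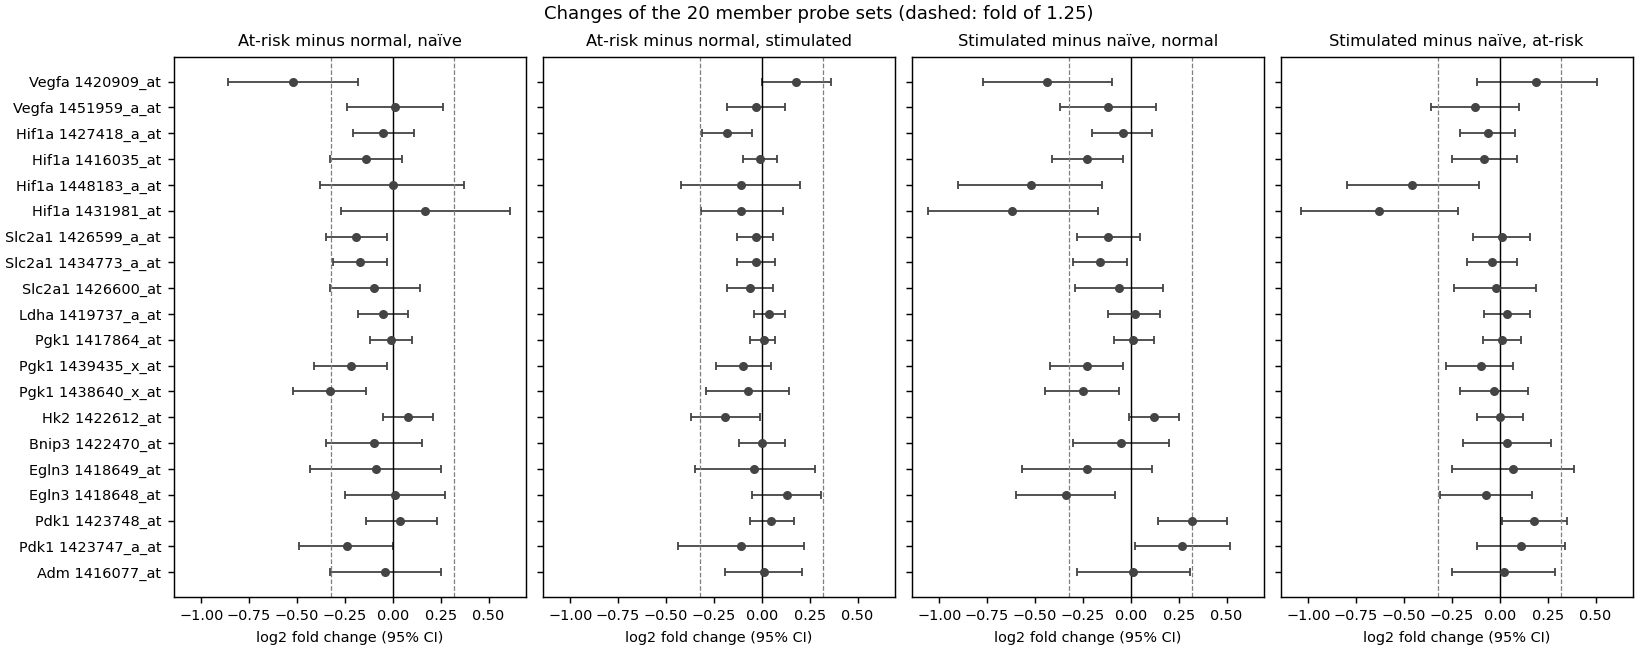
Log2 fold changes (points) with 95% confidence intervals (bars) of the 20 member probe sets in 4 comparisons, with the solid line at no change and dashed lines at the threshold of 0.322. Most intervals over the 4 panels cross 0, and none of the 20 was called in any of the 4 panels; Vegfa 1420909_at lay at -0.52 in naïve pups, while Hif1a 1448183_a_at and 1431981_at lay furthest below 0 for the allergen in at-risk pups.

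Vegfa encodes the main growth factor of blood vessels and was measured by 2 dim probe sets. The brighter, 1420909_at, read 6.03, 6.27 and 6.46 on the 3 naïve normal arrays and 5.94, 5.40, 5.76 and 5.82 on the 4 naïve at-risk arrays. All at-risk values thus lay below all normal values. The difference was -0.52 (SE 0.16, 95% interval -0.86 to -0.18, adjusted p = 0.166), and ranged from -0.63 without AF76 to -0.41 without AF81. In stimulated DCs of Set 1 this probe set read 5.75, 5.96, 5.75 and 5.81 in normal and 6.35, 5.92, 5.83 and 5.59 in at-risk pups, so the groups overlapped. In Set 2 it read 5.44, 5.59, 5.52 and 5.53 in normal and 6.06, 5.6, 5.72, 5.76 and 5.68 in at-risk pups, where the lowest at-risk value lay just above the highest normal value. The stimulated difference over both sets was 0.18 (SE 0.09, 95% interval 0.00 to 0.36, adjusted p = 0.295).

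The naïve and the stimulated difference of Vegfa 1420909_at had opposite signs. With allergen it was lower in normal pups (-0.44, SE 0.16, adjusted p = 0.0837, no overlap of groups), and gave 0.19 in at-risk pups (SE 0.15, adjusted p = 0.53). The difference between the stimulated and the naïve maternal effect was 0.63 (SE 0.22, 95% interval 0.17 to 1.09), which at an adjusted p of 0.418 did not pass. These values moved with single arrays. Without AF79 the allergen difference in normal pups was -0.33 (adjusted p = 0.255). Without AF88, the stimulated at-risk array of the highest value, the allergen difference in at-risk pups was 0.05, the stimulated difference within Set 1 turned from 0.11 to -0.03, and the difference between the maternal effects was 0.49. The allergen difference in normal pups, which AF88 is no part of, was then called at the same -0.44 (adjusted p = 0.0378). The other Vegfa probe set, 1451959_a_at, gave 0.01 (SE 0.12) in naïve and -0.03 (SE 0.07) in stimulated DCs, and its interval in naïve DCs, -0.24 to 0.26, did not reach the value of the first.

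Among the transducers of oxygen, Hif1a was measured by 4 probe sets that did not move alike. The brightest, 1427418_a_at, read 11.94 to 12.23 on all 15 arrays of Set 1, and its differences were -0.05 for naïve at-risk against normal pups and -0.04 and -0.06 for the allergen in normal and at-risk pups (SE 0.07 for each). In Set 2 it read 11.72, 11.86, 11.71 and 11.66 in normal and 11.17, 11.46, 11.52, 11.61 and 11.52 in at-risk pups. There the at-risk values all lay below the normal values, with a difference of -0.28 (SE 0.09, adjusted p = 0.122) that was -0.07 (SE 0.07) in Set 1. The test of that difference between the sets gave -0.21 (SE 0.12, adjusted p = 0.373).

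A second Hif1a probe set, 1448183_a_at, read 10.85, 10.64 and 9.94 on naïve normal and 10.34, 9.94, 9.76 and 9.79 on stimulated normal arrays. In at-risk pups it read 10.37, 10.50, 10.48 and 10.54 on naïve and 10.10, 10.01, 10.11 and 9.85 on stimulated arrays. Naïve and stimulated values overlapped in normal pups, through naïve AF79, but not in at-risk pups. The allergen differences were -0.52 (SE 0.18, adjusted p = 0.0629) and -0.46 (SE 0.16, adjusted p = 0.11), and without AF79 they passed the test (adjusted p = 0.00144 in normal pups, where the difference became -0.79, and 0.0136 in at-risk pups), as the first did without AF84 (0.022). AF79 is no part of the at-risk difference, which stayed at -0.46. Without AF76 the difference in normal pups was instead -0.34 (adjusted p = 0.227).

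The dim Hif1a probe set 1431981_at lay near the lower quartile of the arrays. It read 5.10 to 5.33 in naïve normal, 5.01 to 6.16 in naïve at-risk, 4.39 to 4.78 in stimulated normal and 4.58 to 4.86 in stimulated at-risk arrays of Set 1, without overlap between naïve and stimulated pups of either kind. Its allergen differences were -0.62 (SE 0.21, adjusted p = 0.0609) and -0.63 (SE 0.19, adjusted p = 0.0522), called without AF83 in normal pups (adjusted p = 0.00208) and without AF80 or AF81 in at-risk pups (0.0424 and 0.0269). AF83 was the naïve at-risk array at 6.16 and is no part of the difference in normal pups, which stayed at -0.62. Without AF83 the difference in at-risk pups was -0.37. The fourth, 1416035_at, gave -0.23 (SE 0.09, adjusted p = 0.105) and -0.08 (SE 0.08). All 4 were thus below 0 with allergen in both kinds of pups, by amounts between -0.04 and -0.63.

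**Figure D2:**
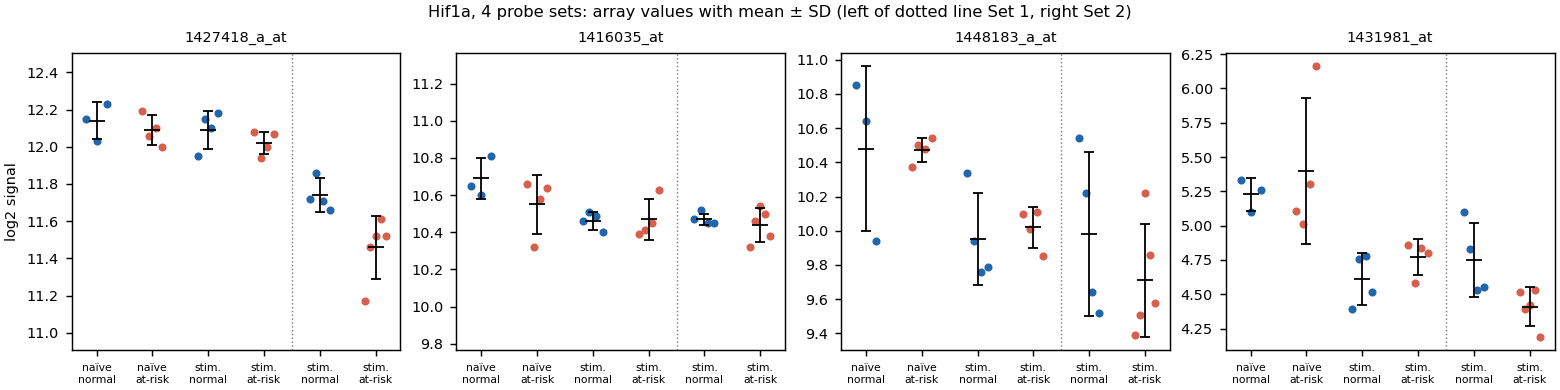
Log2 signal of the 4 Hif1a probe sets on each array (points; blue normal, red at-risk pups) with the group mean ± SD, for Set 1 left and Set 2 right of the dotted line. The means of the stimulated groups of Set 1 sit below those of the naïve groups in 1448183_a_at and 1431981_at, while 1427418_a_at reads 11.94 to 12.23 throughout Set 1.

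Egln3 encodes a prolyl hydroxylase that is itself induced by HIF, and was dim on both of its probe sets. The brighter, 1418649_at, read 6.35, 6.35 and 6.52 on naïve normal and 6.16, 6.13, 5.75 and 6.67 on stimulated normal arrays, and 5.73 to 6.62 on all others. Its differences were -0.09 (SE 0.16) for naïve at-risk pups, -0.04 (SE 0.15) for stimulated at-risk pups, and -0.23 (SE 0.16) and 0.07 (SE 0.15) for the allergen in normal and at-risk pups, of which the third ranged from -0.40 without AF87 to -0.09 without AF86. The stimulated difference was 0.21 (SE 0.15) within Set 1 and -0.26 (SE 0.20) within Set 2. The sets differed by -0.47 (SE 0.29, adjusted p = 0.405 by limma). The other, 1418648_at, read 5.86, 5.85 and 6.34 on naïve normal arrays and 5.41, 5.69, 5.87 and 5.74 on stimulated normal arrays. The difference, -0.34 (SE 0.12, adjusted p = 0.078), rested in part on AF79 and was -0.18 (adjusted p = 0.315) without it, while without AF77 it was -0.42 and called (adjusted p = 0.0475). Between stimulated at-risk and normal pups 1418648_at gave 0.28 in Set 1 (SE 0.11, adjusted p = 0.569 by limma), without overlap. In Set 2 that difference was -0.01 (SE 0.12).

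The glucose transporter Slc2a1 read high on 3 probe sets, and in naïve DCs its differences did not pass the test and rested in large part on 1 array. The brightest, 1426599_a_at, read 11.67, 11.69 and 12.02 on naïve normal and 11.64, 11.61, 11.53 and 11.63 on naïve at-risk arrays. The groups did not overlap, but 2 of the 3 normal arrays, at 11.67 and 11.69, stood next to the at-risk arrays. The difference was -0.19 (SE 0.08, adjusted p = 0.264), and was -0.08 without AF79. The other probe sets gave -0.17 (SE 0.07, adjusted p = 0.255) and -0.10 (SE 0.11, adjusted p = 0.695), which without AF79 were -0.09 and 0.05. In stimulated DCs the 3 differences were -0.03, -0.03 and -0.06 (SE 0.05, 0.05 and 0.06), with intervals between -0.18 and 0.07.

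Hk2, the hexokinase that traps glucose in the cell, read 10.85 to 11.09 on all 15 arrays of Set 1. In Set 2 it read 11.09, 10.97, 10.63 and 10.66 in normal and 10.19, 10.56, 10.84, 10.45 and 10.50 in at-risk pups, which overlapped. The differences for at-risk pups were 0.08 (SE 0.06) in naïve DCs, -0.04 (SE 0.06) in stimulated DCs of Set 1 and -0.33 (SE 0.14, adjusted p = 0.203) in Set 2, and -0.29 (SE 0.16, adjusted p = 0.368) for Set 2 minus Set 1.

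Pgk1, the first glycolytic enzyme to yield ATP, split by probe set. The brightest, 1417864_at, read 12.27 to 12.45 on all 24 arrays, with differences of -0.01 (SE 0.05) and 0.01 (SE 0.03) for naïve and stimulated at-risk pups and 0.01 (SE 0.05) for the allergen in both kinds of pups. The other 2 carry the suffix that Affymetrix gives to probe sets with probes that may also match other transcripts. Of these, 1438640_x_at read 10.79, 10.54 and 10.96 on naïve normal and 10.48, 10.52, 10.33 and 10.40 on naïve at-risk arrays, without overlap. That difference was -0.33 (SE 0.09, adjusted p = 0.134), became -0.44 and was called without AF77 (adjusted p = 0.0305), and was -0.23 without AF79. The third, 1439435_x_at, gave -0.22 (SE 0.09, adjusted p = 0.266), and -0.10 (adjusted p = 0.692) without AF79. With allergen both were lower in normal pups (-0.25 and -0.23, SE 0.09 for each, adjusted p = 0.0776 and 0.103), and without AF77 both were called (adjusted p = 0.0103 and 0.0115), while without AF79 they were -0.15 and -0.11 (adjusted p = 0.28 and 0.378).

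Ldha, which turns pyruvate into lactate, varied little. It read 12.87, 12.98 and 13.09 on naïve normal, 12.94, 13.03, 12.88 and 12.87 on naïve at-risk, and 12.92 to 13.0 on all stimulated arrays of Set 1. All naïve and stimulated groups of Set 1 overlapped. The differences were -0.05 (SE 0.06) and 0.04 (SE 0.04) for naïve and stimulated at-risk pups, and 0.02 and 0.04 (SE 0.06 for each) for the allergen, and these 4 intervals lay between -0.18 and 0.16.

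**Figure D3:**
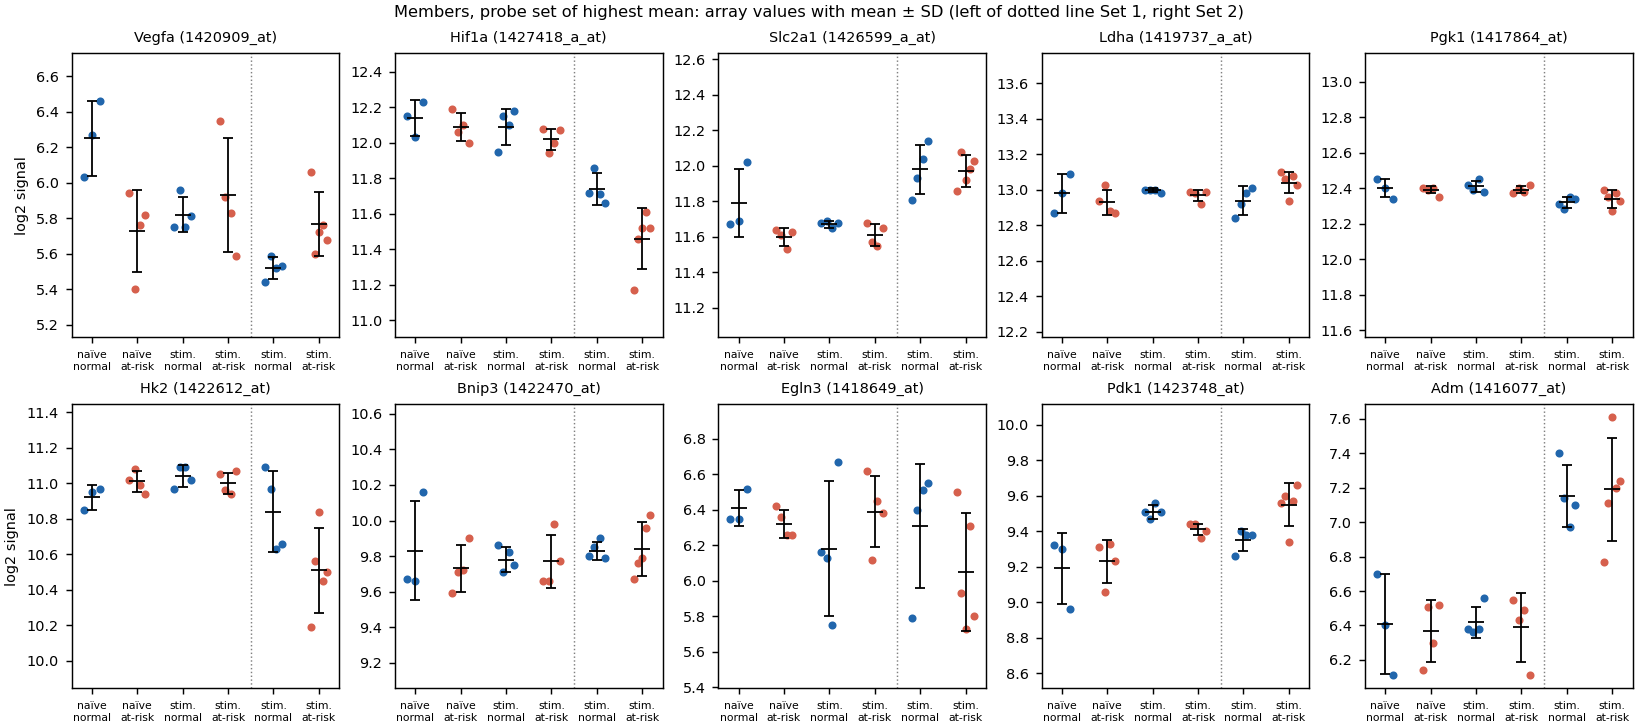
Log2 signal of the 10 members (the probe set of the highest mean for each) on every array (points; blue normal, red at-risk pups) with the group mean ± SD, for Set 1 left and Set 2 right of the dotted line. In naïve DCs the Vegfa values of normal and at-risk pups do not overlap, Pdk1 reads higher on stimulated than on naïve arrays of Set 1 by less than the fold required, and Ldha and Pgk1 stay nearly level.

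Pdk1, the kinase that inhibits pyruvate dehydrogenase, had the smallest adjusted p of the members in the fits reported. Its brighter probe set, 1423748_at, read 9.32, 9.30 and 8.96 on naïve normal and 9.51, 9.47, 9.56 and 9.51 on stimulated normal arrays. In at-risk pups it read 9.31, 9.06, 9.33 and 9.23 on naïve and 9.44, 9.44, 9.36 and 9.40 on stimulated arrays. All stimulated values lay above all naïve values in both kinds of pups. The difference in normal pups was 0.32 (SE 0.09), which passed on its adjusted p of 0.0215 but at a fold of 1.248 lay just under the threshold of 0.322. In at-risk pups the same probe set gave 0.18 (SE 0.08, adjusted p = 0.222), and the difference between the 2, -0.14 (SE 0.12, adjusted p = 0.745), was not past the threshold. Without AF79 the difference in normal pups was 0.20 (adjusted p = 0.0691), and it passed both criteria without AF76, AF77 or AF85.

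The other Pdk1 probe set, 1423747_a_at, differed with maternal status in stimulated DCs of Set 1. It read 7.53, 7.38, 7.53 and 7.74 in normal and 7.24, 7.16, 7.19 and 6.97 in at-risk pups, without overlap, with a difference of -0.41 (SE 0.11, adjusted p = 0.246). In Set 2 it read 6.77, 7.32, 7.60 and 7.28 in normal and 7.97, 6.94, 6.83, 7.66 and 7.56 in at-risk pups. Those overlapped, with a difference of 0.15 (SE 0.25; -0.01 without AF118), and the 2 sets differed by 0.56 (SE 0.29, adjusted p = 0.348). For 1423748_at the same values were -0.10 (SE 0.08) in Set 1, 0.20 (SE 0.07) in Set 2 and 0.30 (SE 0.09, adjusted p = 0.0984) for their difference, which was called without AF125 (adjusted p = 0.0134). With allergen 1423747_a_at gave 0.27 (SE 0.11, adjusted p = 0.138) in normal pups, called without AF76 (0.0428), and 0.11 (SE 0.11) in at-risk pups.

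Bnip3, a mitochondrial receptor for mitophagy, read 9.67, 9.66 and 10.16 on naïve normal and 9.59, 9.71, 9.72 and 9.90 on naïve at-risk arrays. All 6 groups overlapped, within 9.59 to 10.16. Its differences were -0.10 (SE 0.12) and 0.00 (SE 0.06) for naïve and stimulated at-risk pups and -0.05 (SE 0.12) and 0.04 (SE 0.11) for the allergen in normal and at-risk pups, and without AF79 the first was 0.06 and the third 0.12. Adm, a vasodilator peptide, read 6.70, 6.40 and 6.11 on naïve normal and 6.14, 6.51, 6.30 and 6.52 on naïve at-risk arrays, with differences of -0.04 (SE 0.14), 0.01 (SE 0.09), 0.01 (SE 0.14) and 0.02 (SE 0.13) in the same order. Adm read 6.11 to 6.70 on the arrays of Set 1 and 6.77 to 7.61 on those of Set 2, a step that cannot be told apart from the separate amplification and preprocessing of the sets.

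On naïve normal array AF79 Slc2a1, Bnip3, Vegfa 1420909_at and Ldha had their highest value of the group and Pdk1 1423748_at and Adm their lowest. With 3 arrays in that group this array bore on several of the naïve differences and of the allergen differences in normal pups above. Over 45 pairs of members, deviations from the group means on the 24 arrays gave no pair that passed after adjustment, by Pearson's r or Spearman's rho (permutation test within groups). The pair of the largest r was Ldha and Adm (r = -0.661, adjusted p = 0.125 by permutation; rho = -0.579, adjusted p = 0.268), with -0.497 in Set 1, -0.849 in Set 2 and -0.562 without the 2 arrays farthest from the median. Slc2a1 and Ldha followed (r = 0.656, adjusted p = 0.206 by permutation; rho = 0.61, adjusted p = 0.268), with 0.713 in Set 1, 0.59 in Set 2 and 0.474 without AF118 and AF79.

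By likeness to Vegfa 1420909_at over the 15 arrays of Set 1, the 5 leading genes were Ackr3 (r = 0.867), Fbln2 (0.856), Yaf2 (0.855), Rec8 (0.804) and Golim4 (0.773). Over the 9 arrays of Set 2 the same genes gave 0.193, 0.177, -0.145, 0.715 and -0.216. Ackr3, a scavenging receptor for chemokines, averaged 7.75 in naïve normal and 6.82 in naïve at-risk pups. These values are a description over arrays that share groups and, for Vegfa, Fbln2 and Rec8, low signal.

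Around the members stood 79 measured genes of the same pathways, each given by its brightest probe set of 1 symbol. The shares of all probe sets printed beside their counts also cover dim probe sets and those with no symbol or several. The shares are thus unlike in kind, and no set test was run. The lists were chosen with earlier results of these data known. In naïve DCs 1 of 79 (1.27%, beside 0.34% of all probe sets) was called, Bhlhe40, a transcriptional repressor induced by low oxygen and by many other stimuli. It read 12.55, 12.52 and 12.67 in normal and 11.93, 11.87, 11.80 and 11.95 in at-risk pups, a difference of -0.69 (SE 0.09, adjusted p = 0.00357) with no overlap, which held in all 24 alternatives run. Of the other HIF targets 1 of 28 measured was called, and of the HIF regulators, glycolysis genes, genes of pyruvate dehydrogenase control and vascular ligands and receptors 0 of 16, 0 of 22, 0 of 9 and 0 of 15, with 2, 7, 1 and 2 of them under 0.05 unadjusted (limma; list counts include members).

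In stimulated DCs over both sets 6 of 79 (7.59%, beside 1.73% of all probe sets) were called, 4 higher and 2 lower in at-risk pups. Siah2, a ubiquitin ligase that acts on the prolyl hydroxylases, was lower by a difference of -0.34 (SE 0.05, adjusted p = 0.0031). It read 9.28 to 9.50 in normal and 9.06 to 9.24 in at-risk pups of Set 1 and 9.28 to 9.53 and 8.88 to 9.07 in Set 2, without overlap in either set, and was called in each alternative except without AF121. Bhlhe40 was lower again (-0.34, SE 0.07, adjusted p = 0.0161), but lost its call in 7 of 27 alternatives, 5 of them without AF88, AF120, AF121, AF123 or AF127. Hif3a, an alpha subunit of HIF, was higher (0.51, SE 0.11, adjusted p = 0.0268), and lost its call without AF89, AF118, AF119 or AF120.

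The other 3 genes called in stimulated DCs were higher in at-risk pups and were called in all 26 alternatives run, which pooled the sets. Pdk4, the kinase of the same family as Pdk1 that responds to fasting and glucocorticoids, differed by 1.04 (SE 0.20, adjusted p = 0.0135). Pdk4 read 6.58 to 6.83 in normal and 6.84 to 8.16 in at-risk pups of Set 1 and 5.78 to 6.0 and 6.90 to 8.06 in Set 2, without overlap. Ramp2, the co-receptor that makes the calcitonin-like receptor answer to adrenomedullin, differed by 1.43 (SE 0.25, adjusted p = 0.00919), and Flt4, the receptor for VEGF-C, by 0.59 (SE 0.11, adjusted p = 0.0134). Of the endothelial markers 8 of 14 were higher in the same comparison and 0 lower, and of the platelet markers 8 of 12, and their part in Ramp2 and Flt4 was not tested. Within Set 2 alone Ramp2 ranged from 1.98 to 2.24 and Flt4 from 0.79 to 0.90 over 15 alternatives, called in each. Within Set 1 alone none of the 3 genes was called.

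The 0 of 22 glycolysis genes called over both sets (6 under 0.05 unadjusted, limma) became 2 of 22 within Set 2, where Ldhb, which favours lactate oxidation, and Slc2a3, a glucose transporter, were lower (-0.47, SE 0.10, adjusted p = 0.0308, and -0.45, SE 0.10, adjusted p = 0.0318). Ldhb lost its call without AF119, AF120, AF121, AF126 or AF127, and Slc2a3 without AF118, AF119, AF120, AF121, AF124, AF126 or AF127. Within Set 1 none of the 79 was called (0.0707% of all probe sets; limma, with 4 of 16 HIF regulators, 1 of 22 glycolysis genes, 1 of 9 genes of pyruvate dehydrogenase control, 3 of 28 other HIF targets and 2 of 15 vascular genes under 0.05 unadjusted), and within Set 2 12 (15.2%, beside 4.62%) were, 5 higher and 7 lower. Flt1, a receptor for VEGF-A, was called in the test of Set 2 minus Set 1 (0.63, SE 0.15, adjusted p = 0.04), as was Hmox1, the heme-degrading enzyme (-0.77, SE 0.15, adjusted p = 0.0159). Flt1 lost that call in 14 of 25 alternatives, while Hmox1 kept it in all 25. In the same test all 13 macrophage markers lay below 0 and 5 of them were called lower. Of the NK cell markers 3 of 9 and of the neutrophil markers 3 of 11 were also called lower, while 6 of 12 platelet markers were called higher. The part of these cell types in Hmox1 and Flt1 was not tested.

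With allergen 13 of the 79 (16.5%, beside 11.5% of all probe sets) were called in normal and 11 (13.9%, beside 7.88%) in at-risk pups, in both directions. Siah2 fell by 0.56 (SE 0.07, adjusted p = 0.000102) and by 0.57 (SE 0.07, adjusted p = 5e-05), and Bhlhe40 by 1.09 (SE 0.09, adjusted p = 2e-06) and by 0.66 (SE 0.08, adjusted p = 8.4e-05). Of the glycolysis genes 5 of 22 were called in normal pups (3 higher, 2 lower) and 4 of 22 in at-risk pups (2 higher, 2 lower). Slc16a1, a lactate transporter, rose by 0.72 (SE 0.14, adjusted p = 0.00277) and by 0.92 (SE 0.13, adjusted p = 0.000234). Ldhb fell by 1.03 (SE 0.20, adjusted p = 0.00339) in normal pups, where naïve AF79 read 10.47 beside 9.39 and 9.48 and the fall was 0.68 without it, and by 0.65 (SE 0.19, adjusted p = 0.0433) in at-risk pups, where 9 of 24 alternatives lost the call.

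Pdk4 rose with allergen by 0.87 (SE 0.24, adjusted p = 0.0261) in normal and by 0.98 (SE 0.22, adjusted p = 0.0109) in at-risk pups, and its call in normal pups was lost without AF76, AF77, AF79, AF84, AF86 or AF87. Vhl, which recognises hydroxylated HIF, rose in normal pups (0.61, SE 0.12, adjusted p = 0.0033; not called with all 24 arrays in the fit, adjusted p = 0.0964) and Ramp2 in at-risk pups (1.31, SE 0.26, adjusted p = 0.00441). All 12 measured platelet markers were called higher in at-risk pups and 11 of 12 in normal pups, and 12 of 13 erythroid markers in each. Called lower in normal pups were 8 of 9 T cell, 6 of 9 NK cell, 7 of 13 macrophage and 6 of 11 neutrophil markers, with 1 neutrophil marker higher. In at-risk pups 6 of 9 T cell, 7 of 9 NK cell and 5 of 13 macrophage markers were called lower, and 2 of 11 neutrophil markers higher. Of 14 endothelial markers 9 were called higher and 1 lower in at-risk pups. The part of these cell types was not tested. None of the 79 was called when the maternal effect in stimulated DCs was tested against that in naïve DCs (limma; 2 of 16 HIF regulators, 3 of 22 glycolysis genes, 0 of 9 genes of pyruvate dehydrogenase control, 2 of 28 other HIF targets and 4 of 15 vascular genes were under 0.05 unadjusted, members included).

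**Figure D4:**
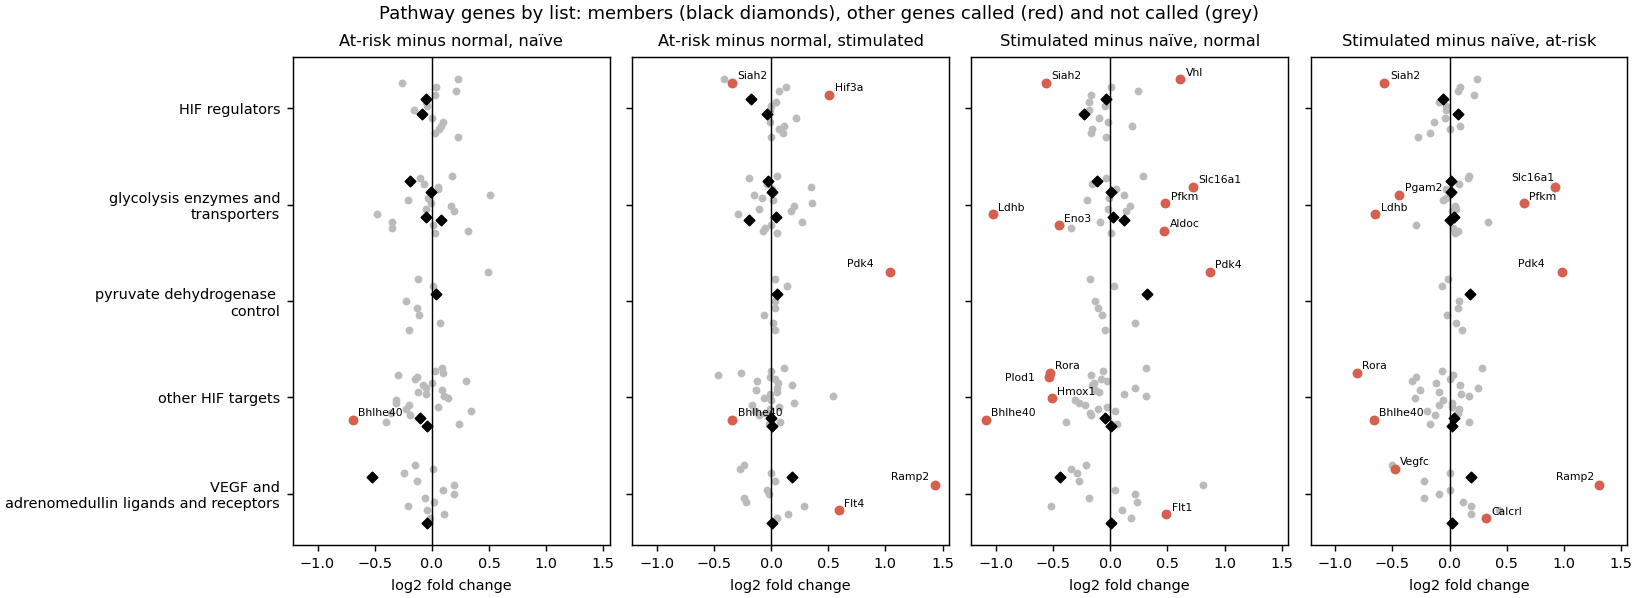
Log2 fold changes of every measured gene of the 5 pathway lists in 4 comparisons, with members as black diamonds, other called genes in red with their symbols and genes not called in grey (1 probe set a gene, the brightest; height within a list carries no value). The red genes lie on both sides of 0, with Bhlhe40 at -0.69 as the one call in naïve DCs, while no black diamond is called.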

How the data were processed

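Splenic CD11c-positive DCs of 24 mouse samples were hybridised to Affymetrix mouse arrays. The authors deposited RMA values, a linear intensity for each probe set (RMA version not given in the sources used here), with the sets preprocessed separately and 1 array of each set left out by them. RMA shrinks differences of dim probe sets. Log2 was taken without pseudocount, and 64 control probe sets were left out. Models were fitted with limma 3.58.1 (R 4.3.3) over 22626 probe sets: with group means on the 15 arrays of Set 1, on the 9 of Set 2, and on the 17 stimulated arrays with set as a term. Python 3.11.15 with pandas 2.3.3, numpy 2.4.6 and, for figures, matplotlib 3.10.9 did the rest. The fits were tested on simulated data. All members were named, and of the other pathway genes up to 4 called per list and comparison, by the probe set of the highest mean. Members and lists were chosen with earlier results of these data known. Pathway genes without a probe set of 1 symbol were not analysed here. Precision is limited by the number of arrays. Alternatives were other normalizations, filters, moderation, array weights, fitted samples and leaving out each array.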

Additional observations from a re-analysis of the deposited data

Results flagged for a closer look

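Of 100 sets of member values in groups of 4 or 5 arrays, 5 held an array far from the others of its group by Dixon's test, where chance gives about 5%. Slc2a1 1434773_a_at read 11.52 on stimulated at-risk AF125 of Set 2, against 11.76 to 11.81. Ldha read 12.98 on stimulated normal AF87 of Set 1, against 12.999 to 13.002, and 12.92 on stimulated at-risk AF90, against 12.98 to 12.99. Pdk1 1423748_at read 9.26 on stimulated normal AF118 of Set 2, against 9.38 to 9.40, and Adm read 6.56 on AF87, against 6.36 to 6.38.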

How the results depend on the processing

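No member probe set was called in the fits reported, and alternatives called between 0 and 4 of 20. In the 3612 member values recomputed, 33 were called, none with another sign than reported, and 201 uncalled values changed sign. For the allergen in normal pups, 1 was called with median centring, array weights, no fold threshold or only the groups compared, and 2 with trend and robust moderation or all 24 arrays in the fit. In at-risk pups 1 was called with median centring, trend and robust moderation, all 24 arrays or only the groups compared, and 2 with array weights, which also called 2 within stimulated Set 2 and 1 for the difference between the sets. Those were probe sets of Hif1a, Pdk1, Vegfa and Hk2. Array weights made the allergen difference of Hif1a 1448183_a_at in normal pups -0.80 (adjusted p = 0.000367). Leaving out 1 array at a time gave 0 to 4 for the allergen in normal pups, 0 to 1 in at-risk pups, 0 to 1 in naïve DCs 0 to 1 for the difference between sets, and 0 in the other comparisons. No paired analysis was possible because no 2 groups share a replicate number. Covariation of the members gave 0 pairs past the threshold also after 2 normalizations chosen after seeing the data (quantile, median centring). Sets cannot be compared in level, and dim probe sets (Vegfa, Egln3, Adm, Hif1a 1431981_at) limit what a difference near 0 shows.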
